A study of Mus musculus with 6 samples.

Results

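The ATF4 arm of the integrated stress response was followed in mouse liver through 10 of its genes, taken by gene symbol: the regulator Atf4, 6 stress effectors (Ddit3, Trib3, Chac1, Ddit4, Nupr1 and Sesn2) and 3 enzymes of amino acid synthesis (Asns, Psat1 and Phgdh). They are 10 of the 24239 gene symbols on the array, and 14 probes carry their names. Liver RNA came from 6 male B6C3F1 mice, 7 weeks old according to the labels, all of which received corn oil by daily gavage over 5 days. In the control group the oil was given alone to 3 mice, and in the TCE group it carried trichloroethylene (TCE), an industrial solvent, at 1000 mg/kg b.w. for the other 3. Each mouse had a 1-colour array of its own, only 1 dose and 1 time point were on the arrays, and the livers were taken shortly after the last dose.

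In the integrated stress response, kinases that sense amino acid shortage, unfolded protein, heme deficit or double-stranded RNA phosphorylate the translation factor eIF2, which slows protein synthesis in general while the Atf4 message is translated more. The ATF4 protein pairs with other bZIP factors at C/EBP-ATF response elements and drives genes that make and import amino acids together with genes that restrain growth or promote cell death. Because the first step acts on translation and protein phosphorylation, an array of mRNA does not read it, and it reads only the messages up- and downstream of it.

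The promoters of the genes were read from RefSeq (GRCm38.p6, 250 bases before to 50 after each start, all 10 genes matched) for the core of the C/EBP-ATF response element, TGATGNAA on one strand or TTNCATCA on the other. It was present in 4 of the 10 genes, 3 of the 6 effectors and 1 of the 3 synthesis enzymes, against 4.51% of 27025 genes and 3.97% of 32851 promoters. The 30 bases around each match are shown 5′ to 3′ on the gene's own strand because they are the letters ATF4 and its partners are known to read, with the match in capitals.
Chac1: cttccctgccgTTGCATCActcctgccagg
Nupr1: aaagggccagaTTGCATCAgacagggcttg
Trib3: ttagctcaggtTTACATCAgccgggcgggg
Asns: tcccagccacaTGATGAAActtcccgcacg
These windows lie at chr2:119351038-119351067 (plus strand), chr7:126625562-126625591 (minus strand), chr2:152344028-152344057 (minus strand) and chr6:7693214-7693243 (minus strand). The match began 193 bases before the start of Chac1, 110 before that of Nupr1 and 23 before that of Asns, and 14 bases after that of Trib3. Chac1 and Nupr1 carried the form with C at the open position (TGATGCAA or TTGCATCA), which 1.03% of all genes hold in this window. For Atf4, Ddit3, Ddit4, Sesn2, Psat1 and Phgdh these letters are not in the window, and a match is a description of sequence, not a measured binding site.

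The 250 bases before the start are given for an effector with the match, an effector without it in the window and a synthesis enzyme with it, so that the 3 stretches can be compared. Bases outside the window were not searched. They cover chr2:119350992-119351241 (plus strand), chr10:127290543-127290792 (plus strand) and chr6:7693210-7693459 (minus strand).
Chac1: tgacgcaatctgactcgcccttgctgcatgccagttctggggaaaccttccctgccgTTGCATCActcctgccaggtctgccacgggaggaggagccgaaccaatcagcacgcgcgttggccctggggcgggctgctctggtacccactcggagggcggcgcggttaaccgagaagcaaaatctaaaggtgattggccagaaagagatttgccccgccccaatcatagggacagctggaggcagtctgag
Ddit3: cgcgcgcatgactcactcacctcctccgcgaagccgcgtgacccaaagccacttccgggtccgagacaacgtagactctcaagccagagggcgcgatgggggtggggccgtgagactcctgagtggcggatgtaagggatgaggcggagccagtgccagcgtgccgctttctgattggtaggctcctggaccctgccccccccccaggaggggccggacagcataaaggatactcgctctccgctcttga
Asns: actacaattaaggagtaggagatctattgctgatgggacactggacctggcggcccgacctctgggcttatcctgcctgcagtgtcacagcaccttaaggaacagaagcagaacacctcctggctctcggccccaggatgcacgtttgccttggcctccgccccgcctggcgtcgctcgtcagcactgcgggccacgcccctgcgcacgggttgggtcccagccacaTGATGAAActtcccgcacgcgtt
The match in Chac1 lies in the distal part of the stretch and that in Asns near its 3′ end.

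Across the arrays, 23537 to 24965 probes per mouse were above background and 0 spots were saturated. In all, 22731 probes for 13284 genes were above background in every mouse of 1 group or of both, and are called detected. Over these probes the arrays of control mice correlated at 0.987 to 0.99 (Pearson), those of TCE mice at 0.978 to 0.987, and arrays of different groups at 0.971 to 0.982. Control mouse 1 was alone on its slide and in its scan, while the other 5 arrays shared the second slide. All 10 hepatocyte markers were above background in all 6 mice, with a summed signal of 1710000 to 1740000 in control and 1620000 to 1770000 in TCE mice (linear intensity after normalization). Of 68 markers in 9 cell type lists, 50 were detected and 0 of them were past the threshold defined below, and 0 to 3 per list had an unadjusted limma p under 0.05. The summed endothelial signal was 13900 in TCE mouse 1, the lowest mouse for 7 of its 8 markers, and 24800 to 26900 in the other mice. Summed signals in control and TCE mice were 19600 to 22000 and 18500 to 23600 for Kupffer cells, and 23000 to 35400 and 25900 to 32800 for stellate cells. They were 2050 to 2490 and 2040 to 3680 for smooth muscle, and 1000 to 1570 and 1480 to 1850 for neutrophils. For cholangiocytes they were 461 to 616 and 376 to 526, and for exocrine pancreas 500 to 657 and 610 to 688. The lymphocyte sums did not overlap, with 1930 to 2010 in control and 1410 to 1890 in TCE mice. Of the 8 lymphocyte markers 4 were detected. Among the detected markers, the 3 largest differences without overlap of the groups were those of the stellate Lrat (difference -1.35, limma, adjusted p = 0.0676), the smooth muscle Cnn1 (at least 1.71-fold lower, above background in 0 TCE mice, adjusted p = 0.114) and the neutrophil S100a8 (1.19, adjusted p = 0.0886). Of the 3 detected pancreas markers, Cel was higher in TCE mice without overlap (mean 6.28 against 5.84), and the groups overlapped for the others. Of the markers not detected, the pancreas Pnliprp1 (mean 5.1 against 3.31) and Cela2a (4.53 against 3.95) were higher in TCE mice without overlap. The smooth muscle Myh11 was lower without overlap (3.18 against 4.66). Of the 10 exocrine pancreas markers, 6 were above background in 0 mice. The part of such cells in the values below was not tested.

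No gene of the 10 passed the test, although 9 of them had a higher mean in TCE mice and 4 a mean at least 2-fold higher. The 4 were Chac1, Psat1, Ddit4 and Ddit3, so that both kinds of gene were among them. A gene was counted as up- or down-regulated when limma gave a Benjamini-Hochberg adjusted p no higher than 0.05 over all 22731 detected probes and the means differed at least 2-fold, and 0 of 10 did so, whereas 1.41% of all detected probes did (1.03% higher and 0.383% lower in TCE mice, and 2.01% with the adjusted p alone, which 0 of the 10 met either). Without adjustment, 5 of the 10 had a limma p under 0.05, against 17.9% of all detected probes. A mean at least 2-fold higher was found in 4 of the 10 against 2.19% of all probes, and 0 were 2-fold lower, against 2.36%. In 5 of the 10, Ddit3, Chac1, Ddit4, Nupr1 and Psat1, every TCE mouse lay above every control mouse, against 15.5% of all probes. By the methods' t-test without adjustment and the 2-fold limit, Ddit3, Ddit4 and Psat1 were past the threshold (3 of 10), against 2.61% of all probes, 1.71% higher in TCE mice, and 0 were after adjustment. With 3 mice per group the exact permutation test cannot go below p = 0.1 (two-sided), and each of these 5 genes had that value. In bulk liver, fewer cells of a type and less RNA per cell cannot be told apart.

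**Figure D1:**
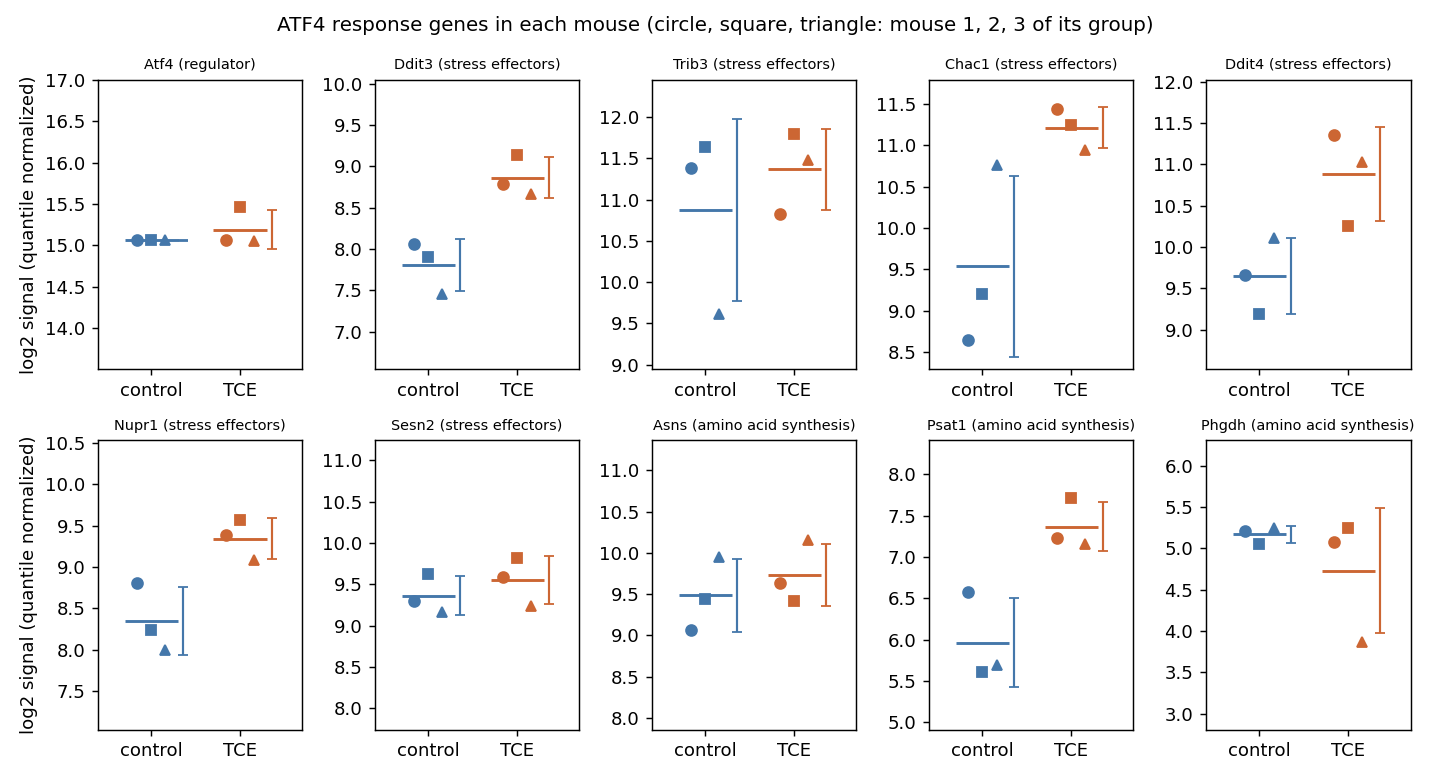
Log2 quantile-normalized signal of the 10 genes in each mouse, with control mice in blue and TCE mice in orange; circles, squares and triangles are mice 1, 2 and 3 of each group, horizontal lines are means, and error bars are 1 SD (n = 3). Each panel spans the same number of log2 units. The groups do not overlap for Ddit3, Chac1, Ddit4, Nupr1 and Psat1, and overlap for the other genes.

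Atf4 encodes the bZIP factor that gives the pathway its name. Its brightest probe (mm9 chr15:80087902-80087961) read a log2 signal of 15.06, 15.06 and 15.07 in control mice 1, 2 and 3, and 15.06, 15.46 and 15.05 in TCE mice 1, 2 and 3. TCE mouse 2 stood above the rest and the groups overlapped. The difference was 0.12 on the log2 scale with a standard error of 0.14 and a 95% confidence interval of -0.22 to 0.47 (limma, adjusted p = 0.699), an interval that ends well below 2-fold. Without TCE mouse 2 the difference was -0.01. The other Atf4 probe (mm9 chr15:80086639-80086698) read 9.62, 9.60 and 9.45 in control mice and 9.65, 9.85 and 9.33 in TCE mice. Its difference of 0.05 had an interval of -0.34 to 0.44 (limma, adjusted p = 0.9).

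Ddit3 encodes CHOP, a bZIP factor that follows ATF4 and promotes cell death under lasting stress. Its log2 signal (mm9 chr10:126732518-126732821) was 8.06, 7.90 and 7.46 in the control mice and 8.79, 9.14 and 8.67 in the TCE mice. The lowest TCE mouse lay above the highest control mouse. The mean went from 7.81 ± 0.314 to 8.86 ± 0.243 (SD, n = 3 each), a difference of 1.06 with a standard error of 0.21, or 2.08-fold with a 95% confidence interval of 1.48 to 2.94. The adjusted p of limma was 0.0661, just outside the threshold. When single mice were left out the difference ran from 0.88 to 1.19, and with slide as a block, which sets control mouse 1 aside, it was 1.19.

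Chac1 encodes an enzyme that breaks down glutathione and is among the messages most responsive to ATF4 in cultured cells. The probe (mm9 chr2:119179990-119180049) read a log2 signal of 8.65, 9.20 and 10.76 in the control mice and 11.44, 11.25 and 10.95 in the TCE mice. Control mouse 3 lay close under the lowest TCE mouse, while the other control mice were far below, and the groups did not overlap. Chac1 had the largest difference of the 10 genes, 1.68 with a standard error of 0.52, or 3.2-fold with a 95% confidence interval of 1.34 to 7.65 (limma, adjusted p = 0.174). The SD was 1.1 among control mice and 0.245 among TCE mice. Control mouse 3 decided the call: without it the difference was 2.29 and past the threshold (limma, adjusted p = 0.0339), and without control mouse 1 it was 1.23 (limma, adjusted p = 0.311). Without TCE mouse 1, the mouse with low endothelial markers, it was 1.57. The window around its promoter match is the first of those shown above.

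The genes outside the list whose centred log2 values lay closest to those of Chac1 over the 6 mice were Tmem136, 9430037G07Rik and Gm10272, with root mean square distances of 0.30, 0.37 and 0.37 log2 units. Tmem136 read 4.15, 4.07 and 5.28 in control mice and 6.63, 6.40 and 6.04 in TCE mice. The choice by likeness fixes that their values follow those of Chac1, control mouse 3 included. The 3 genes were dim, above background in 1 control mouse and in 3 TCE mice each, so that they were tested only through the TCE group.

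Ddit4 encodes REDD1, which restrains the growth kinase mTORC1. Its log2 signal (mm9 chr10:59412486-59412545) was 9.66, 9.19 and 10.11 in the control mice and 11.36, 10.25 and 11.03 in the TCE mice. The groups did not overlap, but the gap between control mouse 3 and TCE mouse 2 was small. The difference was 1.23 with a standard error of 0.35 and a 95% confidence interval of 0.39 to 2.07, 2.34-fold (limma, adjusted p = 0.147). Leaving out single mice gave 0.99 to 1.54. The value was 0.99 without control mouse 2 and likewise without TCE mouse 1, the mouse with low endothelial markers.

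Nupr1 encodes a small chromatin-associated protein that accumulates in stressed cells. At mm9 chr7:133766978-133767037, the probe gave a log2 signal of 8.80, 8.24 and 7.99 in the control mice and 9.38, 9.57 and 9.08 in the TCE mice. All TCE mice were above all control mice, of which mouse 1 was the nearest. The difference of 0.998, just under 2-fold, had a standard error of 0.24 and a 95% confidence interval of 0.41 to 1.58 (limma, adjusted p = 0.11). Within the second slide it was 1.23 (limma, adjusted p = 0.083), and with another background correction, normexp, it was 0.68.

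Trib3 encodes a pseudokinase that is a target of ATF4 and CHOP and dampens both. Its log2 signal (mm9 chr2:152163161-152163220) was 11.38, 11.63 and 9.61 in the control mice and 10.83, 11.79 and 11.48 in the TCE mice. Control mouse 3 was far below the others, and the groups overlapped. The difference of 0.49 had a standard error of 0.56 and a 95% confidence interval of -0.85 to 1.84 (limma, adjusted p = 0.689), the widest interval of the 10 genes, which holds both 0 and a 2-fold difference. It turned to -0.14 without control mouse 3.

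Sesn2 encodes a leucine sensor that also restrains mTORC1. In the control mice the log2 signal (mm9 chr4:132048858-132048917) was 9.30, 9.62 and 9.16, and in the TCE mice it was 9.59, 9.82 and 9.24. The ranges of the groups overlapped over most of their length. The difference was 0.19 with a standard error of 0.20 and a 95% confidence interval of -0.28 to 0.67 (limma, adjusted p = 0.66), which ends below 2-fold.

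Among the genes of amino acid synthesis, Psat1 stood apart from the other two. Psat1 encodes the aminotransferase of the serine pathway. Its log2 signal (mm9 chr19:15979622-15979681) was 6.58, 5.61 and 5.69 in the control mice and 7.23, 7.71 and 7.16 in the TCE mice. The groups did not overlap, and control mouse 1, the array on the other slide, was the highest of the controls. The mean went from 5.96 ± 0.541 to 7.37 ± 0.297 (SD, n = 3 each), a difference of 1.41 with a standard error of 0.30 and a 95% confidence interval of 0.69 to 2.13, 2.66-fold (limma, adjusted p = 0.0809). Without control mouse 1, and equally with slide as a block, the difference was 1.72 and past the threshold (limma, adjusted p = 0.0429). The signal is low on this array, and with normexp the difference was 0.87 (limma, adjusted p = 0.063). The other Psat1 probe (mm9 chr19:15991586-15991645) was above background in 0 mice.

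Asns encodes asparagine synthetase, the best known target of the amino acid response. The control mice had a log2 signal (mm9 chr6:7625171-7625228) of 9.07, 9.44 and 9.95 and the TCE mice one of 9.63, 9.42 and 10.15. The spread within each group was larger than the distance between their means. The difference was 0.25 with a standard error of 0.28 and a 95% confidence interval of -0.44 to 0.93 (limma, adjusted p = 0.694), so that a change of 2-fold lay just outside the interval. Its promoter holds the match shown above, in the form with A at the open position.

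Phgdh encodes the dehydrogenase that opens the serine pathway, the step before Psat1. Its log2 signal (mm9 chr3:98117215-98117274) was 5.21, 5.05 and 5.25 in the control mice and 5.08, 5.25 and 3.86 in the TCE mice. It was above background in all 3 control mice but in only 1 TCE mouse, so that it was tested only through the control group. The groups overlapped. The difference of -0.44 had a standard error of 0.36 and a 95% confidence interval of -1.32 to 0.43 (limma, adjusted p = 0.576), and without TCE mouse 3 it was -0.01. The other 2 probes named for Phgdh were not detected, and the array's annotation places one of them on chr17:53337968-53338027 of mm9, away from the gene.

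Side by side, the 6 effectors had a median difference of 1.03 (range 0.19 to 1.68) and the 3 synthesis enzymes one of 0.25 (range -0.44 to 1.41), where the median over all 13284 detected genes was 0.02. The synthesis median depended on Phgdh, which was near background and tested only through the control group. With all 6 arrays required to be above background, Phgdh dropped out, and the medians were 0.83 for the synthesis enzymes and 1.03 for the effectors. All 6 effectors had a higher mean in TCE mice, 4 without overlap of the groups and 3 at least 2-fold. Of the synthesis enzymes 2 had a higher mean and only Psat1 was without overlap and over 2-fold. Among all detected probes, 15.5% were higher in TCE mice without overlap and 2.19% were at least 2-fold higher. The ranges of the lists overlapped, since Psat1 lay above 5 of the 6 effectors and Trib3 and Sesn2 lay well below the median of the effectors. Both medians are descriptions of these probes, and no test was made of the difference between the lists.

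**Figure D2:**
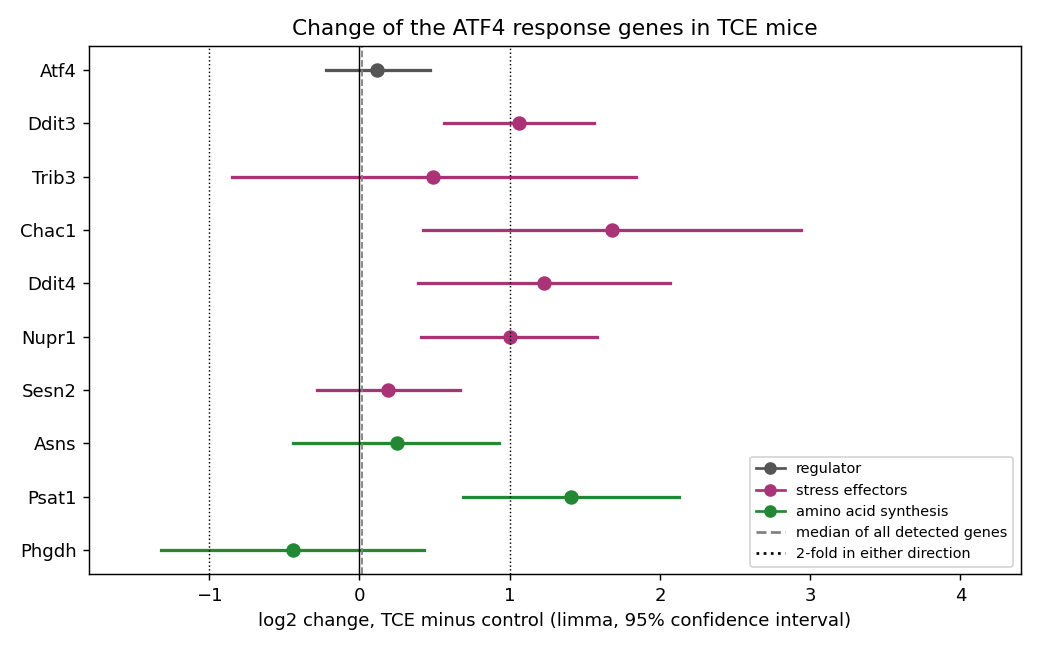
Difference in log2 signal between TCE and control mice for each of the 10 genes (points, limma, n = 3 per group) with 95% confidence intervals (lines), coloured by role. The dashed line is the median of all detected genes, 0.02, and the dotted lines mark 2-fold; the intervals of Ddit3, Chac1, Ddit4, Nupr1 and Psat1 lie above 0 and the others hold 0.

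The mice did not keep one order across the genes. Control mouse 3 was the highest control for Atf4, Chac1, Ddit4, Asns and Phgdh, and the lowest for Ddit3, Trib3, Nupr1 and Sesn2. TCE mouse 2 was the highest TCE mouse for 7 of the 10 genes and the lowest for Ddit4 and Asns. TCE mouse 3 was the lowest for 7 genes and the highest for Asns. With a single mouse left out, Chac1 and Psat1 moved across the threshold and Atf4 and Trib3 across 0, while Ddit3, Ddit4, Nupr1, Sesn2, Asns and Phgdh kept their direction and their side of the threshold.

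**Figure D3:**
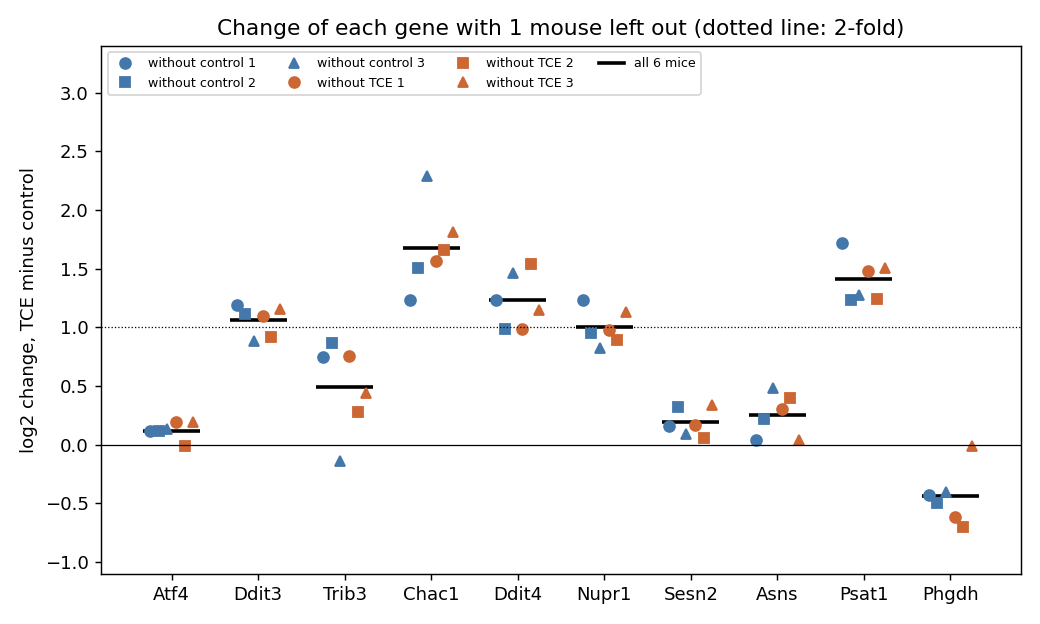
Difference in log2 signal between TCE and control mice for each gene over all 6 mice (black line) and with 1 mouse left out (symbols; blue when a control mouse and orange when a TCE mouse was left out). Chac1 spans 1.23 to 2.29 and Trib3 -0.14 to 0.87, with control mouse 3 at one end of each, and the dotted line marks 2-fold.

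Other genes of the pathway were read in 7 lists, with 81 genes of which 74 were detected. The lists were chosen with earlier results of these data known. Their counts beside the share of all probes are therefore descriptions, not tests. Of these 74, 6 were up-regulated and 2 down-regulated, against 1.03% and 0.383% of all detected probes, and the median difference was 0.03. One of the 6, Atf3, was tested only through the TCE group. With all 6 arrays required to be above background, 7 pathway genes were past the threshold, without Atf3. The genes past the threshold lay in 3 of the lists: bZIP partners, other targets of ATF4, and the ATF6 and XBP1 arm.

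Upstream of Atf4, 13 genes were read, for eIF2, its kinases, its exchange factor and its phosphatase, together with a regulator of the kinases. All were detected and 0 were past the threshold by limma (3 of 13 had an unadjusted p under 0.05, against 17.9% of all detected probes, median 0.15). The largest difference was that of Ppp1r15a, which encodes GADD34, the stress-inducible subunit that directs a phosphatase to eIF2. It read 10.09, 10.20 and 10.39 in control mice and 10.70, 11.26 and 10.48 in TCE mice. The groups were apart by a small gap, and the difference of 0.59 had a 95% confidence interval of 0.06 to 1.11 (limma, adjusted p = 0.24).

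Among 10 bZIP factors that pair with ATF4 or follow it, 2 were up-regulated, against 1.03% of all detected probes, and the median was 0.46. Atf3, a repressor induced by many stresses, read 6.08, 4.78 and 5.28 in control mice, 2 of them above background, and 8.67, 8.54 and 7.58 in TCE mice. All TCE mice were far above the controls, and the difference was 2.88 (SE 0.42, limma, adjusted p = 0.0296). Atf3 was tested only through the TCE group, where it was high, and drops out when all 6 arrays must be above background. Jun, an AP-1 subunit, read 10.02, 9.84 and 10.89 in control mice and 12.49, 13.34 and 12.46 in TCE mice. Its difference was 2.52 (SE 0.36, limma, adjusted p = 0.0287). The call of Atf3 was lost in 4 of the 6 fits with a mouse left out, all but those without control mouse 1 or TCE mouse 3 (difference 2.58 to 2.83 and adjusted p 0.0827 to 0.108 where lost), and that of Jun in 5, all but that without control mouse 3 (2.23 to 2.67 and 0.0607 to 0.113). With normexp the difference of Atf3 was 1.77.

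Of 12 further genes of serine, one-carbon and proline synthesis, 10 were detected, 0 were past the threshold by limma (1 of 10 had an unadjusted p under 0.05, against 17.9%), and the median was 0.03. The largest difference was that of Mthfd1l, a mitochondrial enzyme of folate metabolism, with 7.13, 6.75 and 7.30 in control mice and 8.52, 8.66 and 7.86 in TCE mice. The groups did not overlap, and the difference was 1.29 (limma, adjusted p = 0.0674), or 1.53 and past the threshold without TCE mouse 3 (adjusted p = 0.0432). Of 10 amino acid transporters, 8 were detected and 0 were past the threshold by limma (3 of 8 had an unadjusted p under 0.05, against 17.9%, median -0.17). The largest difference was that of Slc7a5, a carrier of large neutral amino acids, with 5.45, 6.22 and 6.13 in control mice and 6.26, 2.83 and 5.09 in TCE mice, of which 1 was above background. Slc7a5 was above background in all 3 control mice and was tested only through that group. The groups overlapped and its difference of -1.21 had a 95% confidence interval of -3.19 to 0.78 (limma, adjusted p = 0.499). It was -0.26 without TCE mouse 2, -1.97 without TCE mouse 1 and -0.38 with normexp. Slc1a4, a carrier of small neutral amino acids named here after its values were seen, read 13.77, 13.97 and 13.37 in control mice and 12.64, 12.67 and 12.81 in TCE mice. Its groups did not overlap, and its mean of 12.71 in TCE mice against 13.71 in control mice was just outside the threshold (limma, adjusted p = 0.0504), with a difference of -1.17 that was past it without control mouse 3 (adjusted p = 0.0473). Slc6a9 (difference 0.70, limma, adjusted p = 0.136) and Slc38a2 (0.63, adjusted p = 0.172), also named after their values were seen, were higher in TCE mice without overlap. Of the 8 detected transporters, 2 were higher without overlap, against 15.5% of all detected probes, and 1 was lower, against 10.2%.

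All 12 genes for aminoacyl-tRNA synthetases and the tRNA exporter were detected, with differences between -0.35 and 0.25, a median of -0.03 and 0 past the threshold by limma (1 of 12 had an unadjusted p under 0.05, against 17.9%). The largest was that of Aars, the alanine enzyme, with 13.68, 13.91 and 13.83 in control mice and 13.52, 13.31 and 13.53 in TCE mice (difference -0.35, limma, adjusted p = 0.221). Its groups did not overlap, yet the whole 95% confidence interval, -0.65 to -0.05, was far from 2-fold.

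The largest differences of the pathway were found among other targets of ATF4. Of 14 genes, 11 were detected, 10 of them had a higher mean in TCE mice, and 4 were up-regulated, against 1.03% of all detected probes: Fgf21, Atf3, Gdf15 and Vldlr. Among these, Atf3 was tested only through the TCE group, as given above. Fgf21, a fasting hormone of the liver that is also a target of PPARalpha, read 9.09, 7.96 and 8.43 in control mice and 11.62, 12.44 and 11.56 in TCE mice. Its difference was 3.38, or 10.4-fold (SE 0.36 on the log2 scale, limma, adjusted p = 0.0115). Gdf15, a secreted stress cytokine that is also a target of p53, read 9.02, 9.28 and 8.47 in control mice and 11.52, 12.27 and 11.40 in TCE mice. Its difference was 2.81, or 7-fold (SE 0.30 on the log2 scale, limma, adjusted p = 0.0123). Vldlr, a lipoprotein receptor, read 5.99, 5.71 and 5.43 in control mice and 7.39, 8.16 and 8.10 in TCE mice. Its difference was 2.17, or 4.49-fold (SE 0.25 on the log2 scale, limma, adjusted p = 0.0155). With normexp the difference of Vldlr was 1.41. For each of the 3 the groups were apart by more than the spread within either. The call of Gdf15 held with any mouse left out (adjusted p 0.027 to 0.0499), that of Fgf21 was lost without control mouse 3 (difference 3.35, adjusted p = 0.0569), and that of Vldlr without control mouse 2 (2.17, adjusted p = 0.0791) or control mouse 3 (2.03, adjusted p = 0.0634). These targets and the 10 genes above share the same 6 mice and are not independent of each other.

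**Figure D4:**
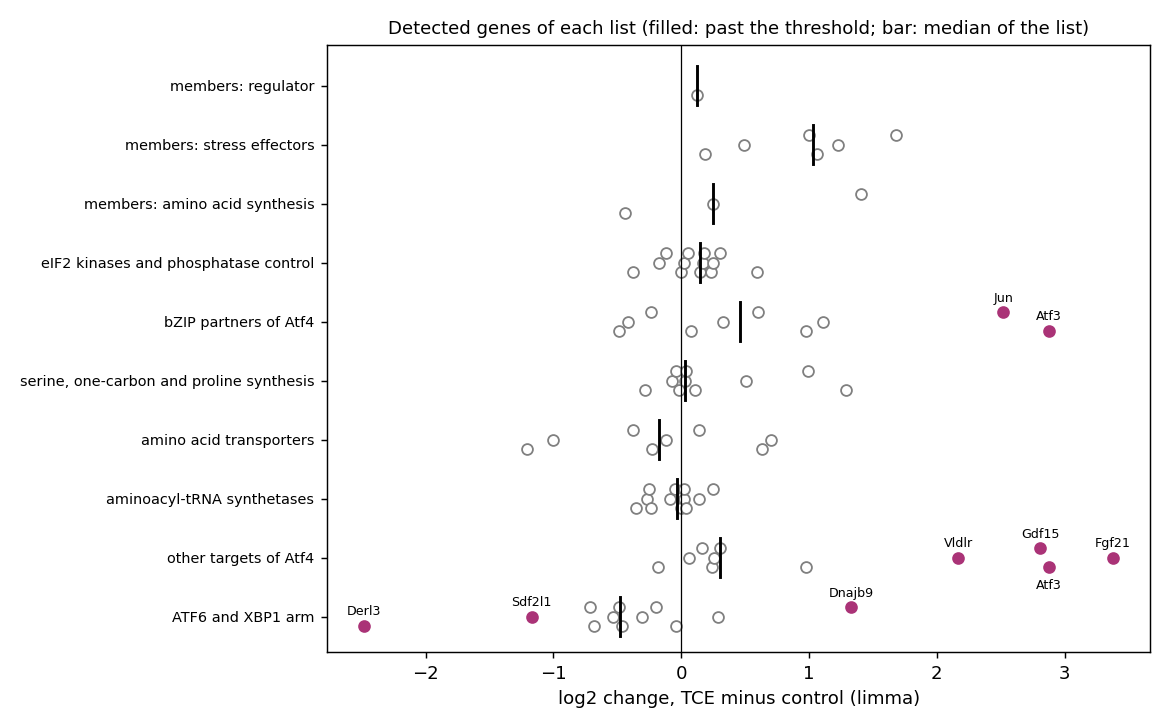
Difference in log2 signal between TCE and control mice for every detected gene of the 10 genes, split by role, and of the 7 other lists; filled and named points are past the threshold, open points are not, and black bars are list medians. Atf3 appears in both lists that hold it, and the named points lie at -1.17 and below or at 1.33 and above.

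The promoters of 3 of these up-regulated genes held the C-form of the element, the same letters as in Chac1 and Nupr1. They are shown as the up-regulated genes among the 13 pathway genes that held this form.
Fgf21: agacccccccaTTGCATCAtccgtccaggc
Atf3: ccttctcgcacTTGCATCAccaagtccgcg
Vldlr: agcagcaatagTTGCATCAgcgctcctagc
The windows lie at chr7:45615611-45615640 (minus strand), chr1:191183425-191183454 (minus strand) and chr19:27216809-27216838 (plus strand) of GRCm38.p6, with the match 139, 110 and 200 bases before the start, for Vldlr before the second of its 2 listed starts. In all, 14 of the 63 pathway genes with a RefSeq promoter held the core, against 4.51% of all genes, and Gdf15, Jun, Dnajb9, Sdf2l1 and Derl3 were not among them. The C-form was also held by Aars, Got1, Herpud1, Iars, Jdp2, Pycr1, Slc1a4, Slc7a11, Tars and Yars, which were not past the threshold. Of these, Aars and Slc1a4 were lower and Jdp2 was higher in TCE mice without overlap of the groups. Slc7a11 was not detected, and the groups overlapped for the rest.

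The ATF6 and XBP1 arm of the unfolded protein response, which drives chaperones of the endoplasmic reticulum, had lower means in TCE mice for most of its genes. All 12 genes were detected, 10 had a lower mean in TCE mice, and in 9 of them the groups did not overlap, against 10.2% of all detected probes. The median was -0.48, with 2 down-regulated and 1 up-regulated by the brightest probe of each gene, against 0.383% and 1.03% of all detected probes. A dimmer probe of Dnajb11, a co-chaperone, was past the threshold as well (difference -1.36, limma, adjusted p = 0.0469), while its brightest probe was not (-0.49, adjusted p = 0.1). Derl3, a factor of the degradation of misfolded proteins, read 9.50, 9.58 and 9.58 in control mice and 7.54, 7.50 and 6.18 in TCE mice, a difference of -2.48 (limma, adjusted p = 0.0315). Sdf2l1, part of a chaperone complex, read 11.34, 11.42 and 11.20 in control mice and 10.20, 10.20 and 10.05 in TCE mice, a difference of -1.17 (limma, adjusted p = 0.00965). Dnajb9, a co-chaperone of BiP, read 11.16, 10.69 and 10.66 in control mice and 12.20, 12.18 and 12.11 in TCE mice, a difference of 1.33 (limma, adjusted p = 0.0194), while its other detected probe had a difference of 1.07 and was not past the threshold (adjusted p = 0.0988). The call of Sdf2l1 was lost without control mouse 2 (-1.12, adjusted p = 0.0555). That of Derl3 was lost in 5 of the 6 fits with a mouse left out, all but that without TCE mouse 3 (adjusted p 0.0602 to 0.126), and that of Dnajb9 in 5, all but that without control mouse 1 (0.0531 to 0.0941).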

How the data were processed

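Liver RNA of 3 control and 3 TCE mice was measured on 1-colour Agilent arrays, 1 mouse per array. The authors used Feature Extraction 10.7.1.1, and the deposited intensity of each spot is corrected for background and trends. A further deposited table gives the authors' quantile-normalized mean of each group as log2 values. Over the 55681 probes that are not controls, all but 26 of the 111362 group means recomputed here lay within 0.01 of those, with a largest gap of 4.69, and for the 10 genes all did. It also holds 6 flag columns for single arrays, which were not used because their names do not match the labels of the mice one to one.

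Outlier spots (123 to 189 per array) were dropped, intensities were put on the log2 scale without a pseudocount, spots were averaged per probe, and arrays were quantile normalized. A probe counted as above background in a mouse when the software flagged most of its spots so. Groups were compared with limma 3.58.1 (R 4.3.3, statmod 1.5.0, data.table in version 1.17.8; two-sided, group only) over all detected probes. The brightest detected probe stood for a gene. Named were all 10 genes, up to 4 per pathway list past the threshold or else the largest difference, and the 3 genes nearest to the member with the largest difference. Pathway genes with the C-form of the element and amino acid transporters whose groups did not overlap are named as well. Genes on chromosome 18 are not named. The 10 genes and all lists were chosen with earlier results of these data known. Probes are placed by the array's own annotation (mm9), and exon or UTR positions were not analysed here. Alternatives were other scaling, background correction, filters, spots, blocks, variance models, tests and probe rules, and each mouse left out. The procedure was tested on simulated data. The number of arrays limits the precision. Figures were drawn with matplotlib 3.10.9 (Python 3.11.15).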

Additional observations from a re-analysis of the deposited data

How the results depend on the processing

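Of the 10 genes, 0 were past the threshold under 13 alternatives. The count was 1 with slide as a block (Psat1), with an intensity trend and robust fit (Ddit3, adjusted p = 0.046) and with the mean of all detected probes of a gene, where 13284 genes are tested (Ddit3, adjusted p = 0.0444), and 0 to 1 with a mouse left out (Psat1 without control mouse 1, Chac1 without control mouse 3). By the methods' t-test, 3 genes were past the threshold unadjusted and 0 after Benjamini-Hochberg adjustment. The count over all detected probes, 321, was 96 with no filter on dim probes, 177 with slide as a block, 594 by the methods' t-test, 35 by that test after adjustment, and 126 to 272 with a mouse left out. The 8 pathway genes were 1 with no filter (Sdf2l1) and 1 by the adjusted methods' t-test (Sdf2l1), and 2 to 7 with a mouse left out, the fewest without control mouse 2. The median of the effectors, 1.03, was 0.80 with normexp and 0.85 to 1.21 with a mouse left out. That of the synthesis enzymes, 0.25, was 0.83 when all 6 arrays had to be above background, which drops Phgdh, and 0.04 to 0.48 with a mouse left out, the highest without control mouse 3. With a mouse left out, Atf4 lay between -0.01 (without TCE mouse 2) and 0.19, and Trib3 between -0.14 (without control mouse 3) and 0.87. The cause of these shifts was not tested, apart from those given by the construction of the alternative.

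Mice of the same number in both groups showed no shared deviation (r of 0.09, 0.01 and -0.09 over detected probes). With 3 mice per group this cannot exclude a pairing by number. With the replicate number as a block, 63 probes, 0 of the 10 genes and 1 pathway gene (Gdf15) were past the threshold, while the medians of 1.03 and 0.25 were the same. No scaling moved the median of all probes above 0.04. Signals near background, as for Phgdh and Psat1, limit what the array can show.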
